A study of Mus musculus with 12 samples.

Results

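Sertoli-fate genes are genes that the fetal testis switches on as its supporting cells become Sertoli cells. They were followed here in mouse ovary at E16.5, late in gestation, a tissue whose supporting cells take the granulosa path. The 7 genes were fixed by identifier as Sox9, Amh, Dmrt1, Fgf9, Ptgds, Dhh and Sox8. All 7 were present among the 55416 annotated genes of the input count files, each on the chromosome that RefSeq gives for its symbol. In 6 of the 7 the annotated span differed from the RefSeq span of that symbol by at most 64 bp. Only Sox9 had a row in the RIP table, which lists 7525 gene identifiers. The question was how far these genes were silent in the ovary and whether loss of Fmr1 altered that.

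The series holds 4 groups of whole E16.5 ovaries, with 3 samples in each group and 5 pairs of ovaries pooled per sample. Fmr1 KO input and WT input are RNA taken from the homogenate before any precipitation. Fmr1 KO RIP and WT RIP are RNA pulled down with anti-FMRP antibody (RNA immunoprecipitation, RIP), FMRP being the protein product of Fmr1, which binds RNA. The strain field reads B6.129P2-Fmr1tm1Cgr/J for both genotypes, the targeted Fmr1 allele is constitutive, and the WT input animals are described as littermates. Whether KO ovaries carried the allele on both X chromosomes is not stated in the sources used here. A whole ovary mixes germ cells, supporting cells, stroma, vessels and adjoining tissue, so fewer cells of a type and less RNA per cell cannot be told apart.

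In the testis Sry switches on Sox9, a transcription factor of the SOX family, and Sox9 then drives the Sertoli programme. The growth factor FGF9 and prostaglandin D2, made by the enzyme that Ptgds encodes, sustain Sox9, and Sox8 acts beside it. AMH and DHH are signals that Sertoli cells send out, and DMRT1 keeps the male fate in place after birth. In the XX gonad the WNT4, RSPO1 and FOXL2 pathways hold this programme down.

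The RefSeq promoter table (build GRCm38.p6) held windows for 4 of the 7 genes. Those of Ptgds, which had the highest level per length, of Fgf9, whose KO and WT input levels did not overlap, and of Dhh, which had the lowest level, are shown as the 250 bases before the RefSeq start. Capitals mark matches to a TATA-type motif, TATAAA or ATAAATA on the strand of the gene, and to a GATA motif, AGATAA on either strand. A SOX motif, ACAAAG or AACAAT on either strand, was searched too and had no match in these windows. No matches overlapped.
Ptgds, chr2:25469750-25469999, minus strand: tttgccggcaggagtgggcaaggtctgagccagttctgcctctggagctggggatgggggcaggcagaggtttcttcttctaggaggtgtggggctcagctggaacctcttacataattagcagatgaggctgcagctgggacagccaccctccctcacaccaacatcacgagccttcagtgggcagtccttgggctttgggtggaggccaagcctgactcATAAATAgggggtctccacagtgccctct
Fgf9, chr14:58072436-58072685, plus strand: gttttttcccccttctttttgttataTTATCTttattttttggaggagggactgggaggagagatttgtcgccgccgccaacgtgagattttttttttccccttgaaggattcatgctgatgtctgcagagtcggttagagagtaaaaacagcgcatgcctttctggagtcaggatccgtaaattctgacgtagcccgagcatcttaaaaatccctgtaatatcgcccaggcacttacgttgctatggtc
Dhh, chr15:98898541-98898790, minus strand: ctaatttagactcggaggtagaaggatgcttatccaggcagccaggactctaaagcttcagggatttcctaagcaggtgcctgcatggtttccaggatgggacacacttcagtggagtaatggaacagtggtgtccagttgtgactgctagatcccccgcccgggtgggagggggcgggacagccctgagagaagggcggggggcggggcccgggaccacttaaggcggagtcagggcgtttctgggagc
The Ptgds window held 2 CpG dinucleotides and 1 TATA-type match, whereas the Fgf9 window held 11 CpG dinucleotides and 1 GATA match. The Dhh window held 9 CpG dinucleotides and no match to the 3 motifs. Over all 32851 windows of the table the median was 6 CpG dinucleotides, and 9.28% had the TATA-type motif, 9.99% the GATA motif and 24.0% the SOX motif. A match is a run of letters and not a shown binding site. RefSeq gives Dhh a span of 16948 bp and the count files one of 7389 bp, so that window may not lie directly before the counted exons. Window positions follow GRCm38.p6, whereas gene positions below are those of the count files, whose annotation release postdates GRCm38. The 2 sets of positions are therefore not comparable base by base, for any of these genes.

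Input libraries held 18880238 to 25707718 counted reads. Levels are given as CPM, reads per 1000000 counted reads after TMM scaling, and levels of different genes are set beside each other only as CPM per kilobase of exon (CPM per kb). The targeted gene Fmr1 had 1644, 2968 and 1763 reads in KO input and 5177, 4880 and 4664 in WT input. Fmr1 fell, with KO input at 47.4% of WT input (log2 change -1.08, SE 0.11). Its adjusted p was 0.00776 by the quasi-likelihood test of edgeR, adjusted after Benjamini and Hochberg over the 23698 genes with enough reads. Markers of other cell types were not analysed here, since no table used here pairs the count files' identifiers with symbols.

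None of the 7 genes was at 0 in any library, and the lowest of the 42 counts was 3 reads. Their levels spread over a wide range. Ptgds stood highest, at 8.17 ± 0.82 CPM per kb in KO input and 10.3 ± 2.40 in WT input (SD, n = 3 each). Dhh stood lowest, at 0.149 ± 0.11 CPM per kb in KO input and 0.0928 ± 0.061 in WT input (SD, n = 3 each). Together the 7 genes drew between 756 and 1173 reads per library.

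**Figure D1:**
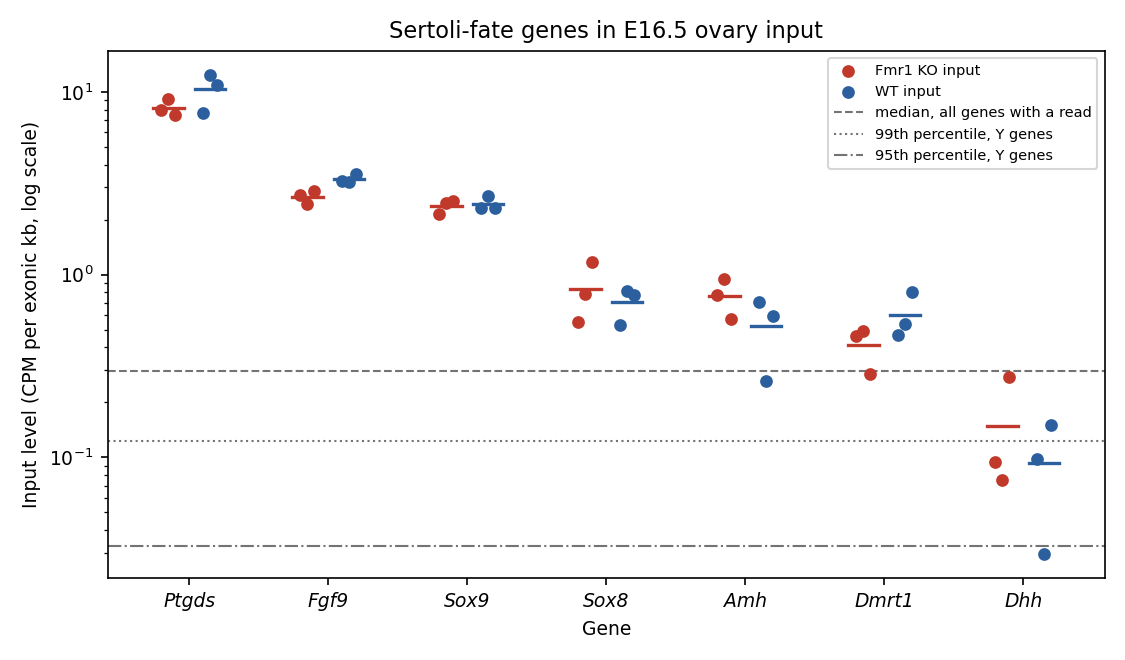
Input level of each Sertoli-fate gene in CPM per exonic kb on a log axis, with 3 KO and 3 WT libraries per gene as points and the group means as bars. Horizontal lines mark the median of all genes with a read (0.299), and the 99th and 95th percentiles of Y chromosome genes (0.124 and 0.0326); only Dhh reaches down to the Y lines.

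Ordered by mean level per kb over the 6 libraries, the genes ran Ptgds, Fgf9, Sox9, Sox8, Amh, Dmrt1 and Dhh. Ptgds lay above Fgf9 in 6 of 6 libraries, by 3.07-fold in the mean, and their ranges did not overlap. Sox9 lay above Sox8 in 6 of 6 libraries, by 3.13-fold, again without overlap. Fgf9 and Sox9 overlapped, with Fgf9 higher in 5 of 6 libraries. Sox8, Amh and Dmrt1 were not separated, since Sox8 was above Amh in 3 of 6 libraries and Amh above Dmrt1 in 4 of 6. Dmrt1 lay above Dhh in 6 of 6 libraries, with ranges of 0.285 to 0.802 for Dmrt1 and 0.0297 to 0.276 CPM per kb for Dhh. That separation is narrow. With the same CPM divided by only the 3292 of 4399 exonic bases that no other gene's exons cover, Dhh reached 0.369 CPM per kb. It then overlapped Dmrt1. Only the length was changed, and reads were not counted anew.

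To judge silence, the genes were placed among all others. Of the 55416 annotated genes, 5846 had no read in any input library, and the other 49570 had a median of 0.299 CPM per kb. By mean level among those 49570, Ptgds stood at percentile 88.4, Fgf9 at 76.2, Sox9 at 74.0, Sox8 at 62.3, Amh at 60.2, Dmrt1 at 57.2 and Dhh at 34.3. The 23698 genes with enough reads for testing had a median of 2.93 CPM per kb, so Fgf9 (3.01) and Sox9 (2.41) lay near the middle of the tested genes and only Ptgds (9.24) well above it.

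Genes of the Y chromosome gave a second scale, since an XX ovary carries no Y. Outside the distal end that Y shares with X, 1564 Y genes were annotated and 1107 of them had no read in any input library. Their 95th percentile was 0.0326 and their 99th percentile 0.124 CPM per kb, and their summed level was 24.5 ± 2.38 CPM in KO input and 25.6 ± 2.29 CPM in WT input (SD, n = 3 each). Reads at Y genes can come from similar sequence elsewhere, and many Y genes are near-identical copies. No Y gene had a higher mean than Ptgds, 2 were higher than Sox9 or Fgf9, 3 were higher than Sox8, Amh or Dmrt1, and 18 were higher than Dhh. By this scale Dhh, at a mean of 0.121 CPM per kb, stood at the upper edge of what Y genes show. The other 6 genes stood above all but 3 or fewer of the Y genes. Divided by only its 3292 unshared exonic bases, Dhh had means of 0.199 CPM per kb in KO input and 0.124 in WT input. Lengths of Y genes were not changed in this way.

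**Figure D2:**
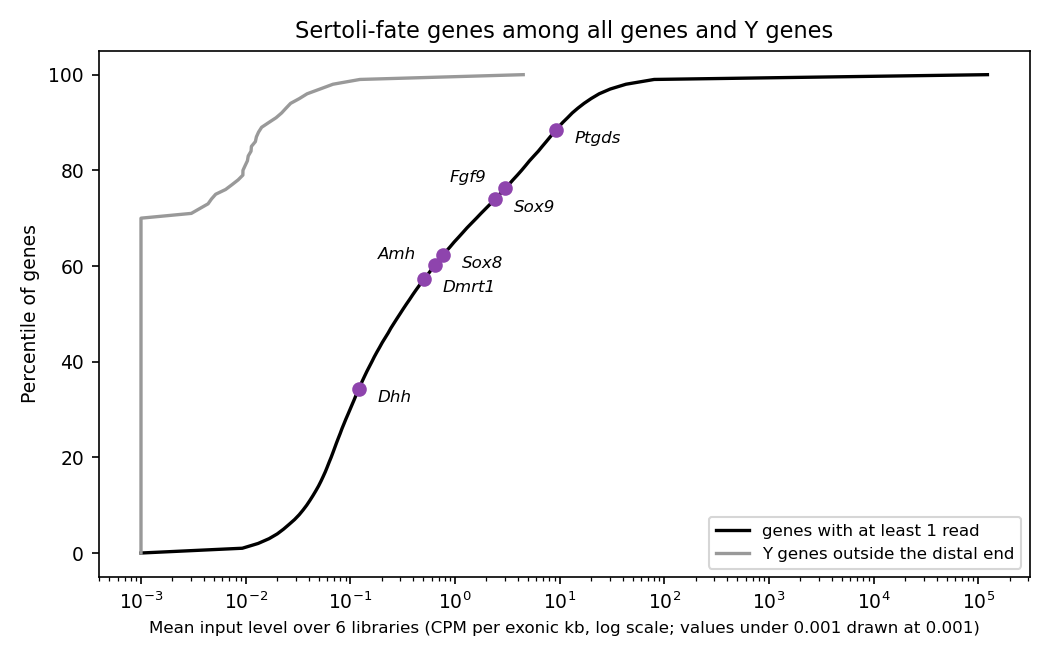
Mean input level over 6 libraries (CPM per exonic kb, log axis) against percentile, as a black curve for the 49570 genes with a read and a grey curve for the 1564 Y genes outside the distal end. Purple points are the 7 Sertoli-fate genes on the black curve, from Dhh at percentile 34.3 to Ptgds at percentile 88.4.

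Among the transcription factors, Sox9 (ENSMUSG00000000567, chromosome 11, 112673050 to 112678586, plus strand, 3 exons after merging, 4135 exonic bases) had the smallest fitted difference between genotypes of the set. It had 8.88, 10.1 and 10.5 CPM in the 3 KO input libraries, against 9.52, 11.1 and 9.60 CPM in the 3 WT input libraries. The groups overlapped, and the means were 9.83 ± 0.83 CPM in KO input and 10.1 ± 0.91 CPM in WT input (SD, n = 3 each). Its fitted change was -0.04 on the log2 scale (SE 0.15, adjusted p = 0.991, edgeR), with a 95% interval of 0.781-fold to 1.22-fold. It turned to 0.030 without KO replicate 1 and to 0.041 without WT replicate 2, so it has no settled sign. A gene on the opposite strand lies 247 bp from Sox9, start to start, and had 0.470 ± 0.096 CPM in KO and 0.490 ± 0.090 CPM in WT (SD, n = 3 each). Per kb this was 0.0346 times the level of Sox9.

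Sox8 (ENSMUSG00000024176, chromosome 17, 25784866 to 25789660, minus strand, 3118 exonic bases) encodes the relative that can partly stand in for SOX9. Its counts were 33, 59 and 69 reads in KO input, against 42, 58 and 51 reads in WT input. The KO libraries spread more widely, from 1.71 to 3.65 CPM against 1.65 to 2.52 CPM in WT, and the groups overlapped. Its log2 change was 0.25 (SE 0.30, adjusted p = 0.977, edgeR), with an interval of 0.768-fold to 1.83-fold. With 1 library left out it ran from -0.061 without KO replicate 3 to 0.47 without KO replicate 1, and it was 0.073 without WT replicate 1. Of its exonic bases 329 also belong to a gene on the opposite strand, which had 2.57 ± 0.30 CPM in KO and 2.76 ± 0.42 CPM in WT (SD, n = 3 each).

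Dmrt1 (ENSMUSG00000024837, chromosome 19, 25482982 to 25581693, plus strand, 2594 exonic bases) encodes a DM-domain transcription factor that is also known from germ cells. Counts were 23, 31 and 14 reads in KO input, against 31, 32 and 44 reads in WT input. At 1.19, 1.28 and 0.740 CPM the KO libraries lay lower on average than the WT libraries at 1.22, 1.39 and 2.08 CPM, but KO replicate 2 exceeded WT replicate 1. The log2 change of -0.53 (SE 0.35, adjusted p = 0.945, edgeR) had an interval of 0.418-fold to 1.16-fold. With 1 library left out it ran from -0.68 without KO replicate 2 to -0.27 without WT replicate 3, and it was -0.32 without KO replicate 3.

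Of the 2 genes that sustain Sox9 in the testis, Fgf9 (ENSMUSG00000021974, chromosome 14, 58308004 to 58350177, plus strand, 4649 exonic bases) encodes a secreted fibroblast growth factor. It had 12.7, 11.3 and 13.4 CPM in KO input, against 15.1, 14.97 and 16.6 CPM in WT input. All 3 KO libraries lay below all 3 WT libraries (two-sided exact permutation p = 0.1, which 3 against 3 libraries cannot undercut). Means were 12.4 ± 1.08 CPM in KO and 15.6 ± 0.89 CPM in WT (SD, n = 3 each). The log2 change was -0.33 (SE 0.14), with an interval of 0.656-fold to 0.970-fold, an unadjusted p of 0.0255 and an adjusted p of 0.763 over all genes (edgeR), so the difference did not pass. Among all 23698 tested genes, 5.69% had every KO library below every WT library and 3.00% were lower in KO at an unadjusted p under 0.05. The GATA match in the Fgf9 window printed above is part of the promoter's letters and was not measured in either genotype.

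Ptgds (ENSMUSG00000015090, chromosome 2, 25356721 to 25360058, minus strand, 1649 exonic bases) encodes the lipocalin-type prostaglandin D synthase, which also occurs in other tissues. Its counts were 252, 362 and 234 reads in KO input, against 322, 470 and 378 reads in WT input. KO libraries had 13.1, 14.98 and 12.4 CPM and WT libraries 12.7, 20.4 and 17.9 CPM. WT replicate 1 lay inside the KO range, and the other 2 WT libraries lay above every KO library. On the log2 scale Ptgds differed by -0.33 (SE 0.16, unadjusted p = 0.0502, adjusted p = 0.844, edgeR), with an interval of 0.633-fold to 1.00-fold. It was -0.17 without WT replicate 2 and -0.50 without WT replicate 1 (adjusted p = 0.999 and 0.581, edgeR).

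Of the 2 signals sent out by Sertoli cells, Dhh had the lowest mean level per kb of the set. The level of Amh was not separated from those of Sox8 and Dmrt1. Amh (ENSMUSG00000035262, chromosome 10, 80641077 to 80643482, plus strand, 1670 exonic bases) encodes anti-Müllerian hormone, which makes the Müllerian ducts regress in males. Counts were 25, 38 and 18 reads in KO input, against 30, 10 and 21 reads in WT input. The groups overlapped, at 1.27 ± 0.31 CPM in KO input and 0.869 ± 0.39 CPM in WT input (SD, n = 3 each), and the lowest library was WT replicate 2. The fit put Amh at 0.55 on the log2 scale (SE 0.40, adjusted p = 0.957, edgeR), with an interval of 0.827-fold to 2.60-fold. With 1 library left out it ran from 0.23 without WT replicate 2 to 0.85 without WT replicate 1, and it was 0.37 without KO replicate 2.

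Amh lies in a crowded stretch. A gene on the same strand ends 318 bp before it and had 50.1 ± 6.36 CPM in KO and 43.8 ± 4.2 CPM in WT (SD, n = 3 each), which per kb was 27.5 times the level of Amh. In the RefSeq gene order the protein-coding gene before Amh is Sf3a2, a splicing factor subunit, and the one after it is Jsrp1. A gene on the opposite strand lies 847 bp after Amh and had 2.23 ± 0.80 CPM in KO and 1.31 ± 0.51 CPM in WT (SD, n = 3 each). None of these exons overlap those of Amh. Whether reads that run past the end of the upstream gene were counted as Amh was not tested.

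Dhh (ENSMUSG00000023000, chromosome 15, 98789033 to 98796421, minus strand, 4399 exonic bases) encodes desert hedgehog, which signals to Leydig cell precursors in the testis and is also known from Schwann cells and vessels. It had 8, 8 and 23 reads in KO input, against 11, 3 and 14 reads in WT input. KO replicate 3 held 23 of the 39 KO reads and was the highest of the 6 libraries. The other 2 KO libraries lay within the WT range. Dhh was the 1 gene of the 7 that did not pass the filter on low counts. Its summed counts were 39 in KO (exact Poisson 95% interval 27.7 to 53.3) and 28 in WT (18.6 to 40.5), intervals that cover counting error only. Scaled to library size the ratio of KO to WT was 1.55 (95% interval 0.932 to 2.62), and it was 0.915 (0.463 to 1.75) without KO replicate 3. Without the filter its fitted change was 0.65 on the log2 scale (SE 0.52, adjusted p = 0.913, edgeR), and its library-to-library variation of 74.6% in KO exceeded the 27.7% that counting alone would give. Dhh passed the filter in 4 of the fits with 1 library left out, where its change ran from 0.24 without WT replicate 2 to 1.00 without KO replicate 2. A total of 1107 of its exonic bases, 25.2%, also belong to exons of other genes, and the count command had no option that assigns a read to more than 1 gene.

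**Figure D3:**
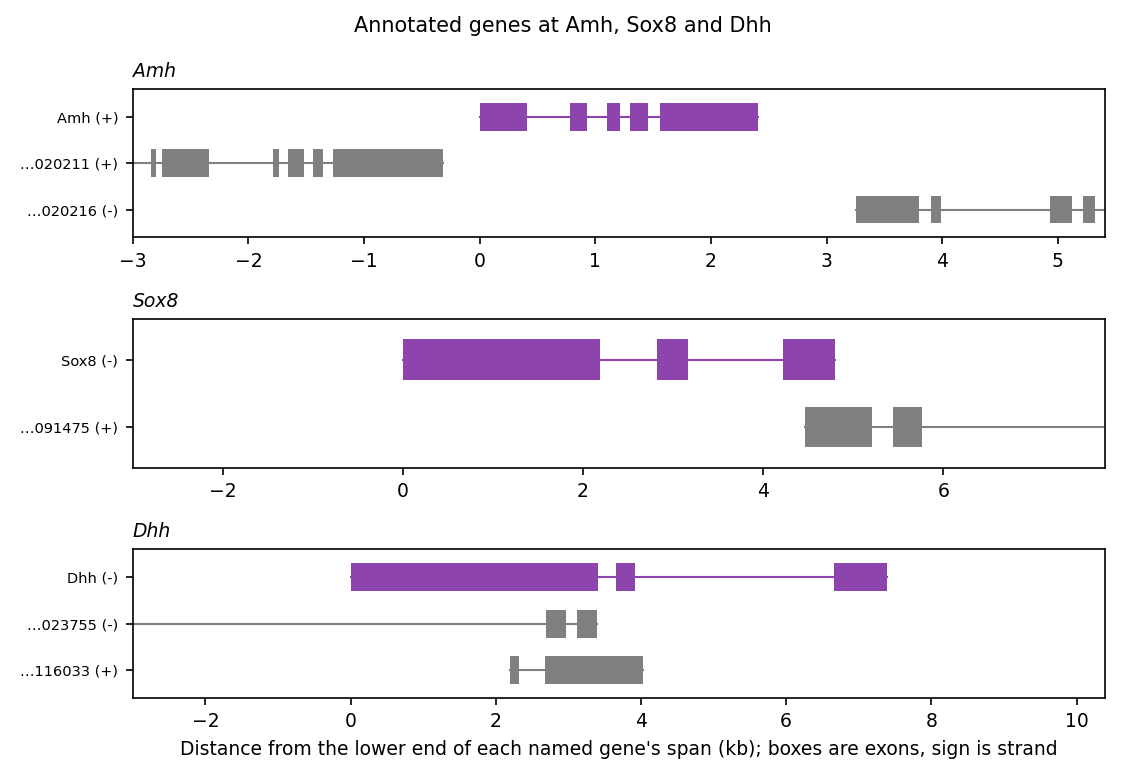
Exons (boxes) of Amh, Sox8 and Dhh in purple and of annotated genes near them in grey, by distance in kb from the lower end of each gene's span, with the strand in brackets and the last 6 digits of the other identifiers. Exons of Amh stand clear of both neighbours, 329 exonic bases of Sox8 lie under an opposite-strand exon, and 1107 exonic bases of Dhh are covered by 2 other genes.

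Set together, 0 of the 6 genes that passed the filter were called in KO against WT (edgeR), and so were 0 with DESeq2 and 0 with limma-voom. Over all 23698 tested genes edgeR called 10, or 0.0422%, DESeq2 called 41 and limma-voom called 13. At an unadjusted p under 0.05 there was 1 of the 6, Fgf9, with Ptgds just above that line at 0.0502 (edgeR). Of all tested genes, 5.91% had an unadjusted p under 0.05. Which genes had such a p changed with the libraries used: Ptgds joined Fgf9 without WT replicate 1 (unadjusted p = 0.00322 and 0.0398, edgeR) and in the fit without the low-count filter (0.0162 and 0.0215). Without KO replicate 2 it was Ptgds (0.0326) and not Fgf9 (0.0979), and without WT replicate 3 Fgf9 had an unadjusted p of 0.0907 (edgeR) and none of the 6 was under 0.05. Groups did not overlap in 1 of the 6, again Fgf9, where 10.9% of all tested genes had groups without overlap. Of the 6 changes 4 were negative and 2 positive, and the median was -0.18 on the log2 scale, beside -0.0020 over all tested genes, of which 50.5% were negative. It was -0.07 without WT replicate 2. The upper ends of the 7 intervals run from 0.970-fold for Fgf9 to 3.19-fold for Dhh. With all libraries in the fit, the 95% interval of Sox9 ends at 1.22-fold. For Amh and Dhh a gain above 2-fold lies within the interval.

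**Figure D4:**
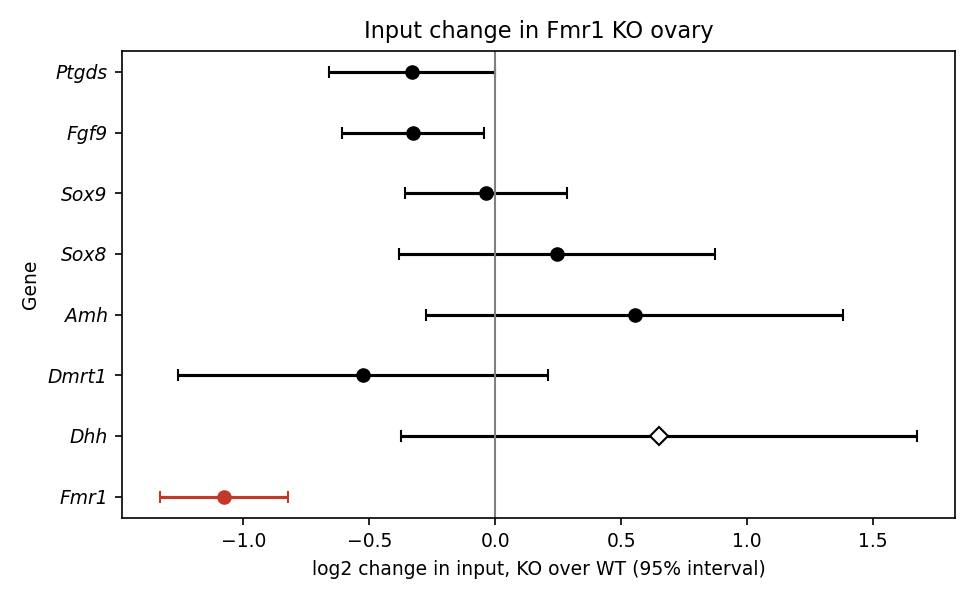
Log2 change in input, KO over WT, for each Sertoli-fate gene and for the targeted gene Fmr1 (red), with 95% intervals, and Dhh as an open diamond because it comes from the fit without a low-count filter. The intervals of Fgf9 and Fmr1 lie below 0, and of the genes drawn only Fmr1 passed after adjustment over all genes.

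Across the 6 input libraries the genes were also compared by the distance between log2 profiles centred on each gene's mean (pseudocount 0.5). This was done for each of the 6 genes with a mean of at least 1 CPM against the other 6. Profiles were not scaled to equal spread, so a gene that varies little lies near others whatever the direction of their changes. Fgf9 and Sox9 were each other's nearest gene of the set, at a distance of 0.491. Ptgds and Sox8 were nearest to Sox9 too, at 0.558 and 0.629, Dmrt1 to Ptgds at 0.563, and Amh to Sox9 at 1.06. These distances describe 6 libraries and carry no test. Library-to-library variation of Sox9 was only 8.49% in KO and 9.05% in WT. Being nearest to Sox9 thus does not show that a gene rose and fell with it.

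In the RIP table the authors give a fold enrichment, a linear ratio, for 14447 rows, and what it is relative to is not given in the sources used here. Sox9 had 1 row, with fold enrichments of 3.14, 3.00 and 2.70 in KO RIP, against 2.74, 1.62 and 2.27 in WT RIP. All 3 KO libraries were high, WT replicate 2 was low, and the groups overlapped through WT replicate 1. Among all rows of a library the Sox9 row stood at percentiles 88.0, 84.6 and 80.9 in KO RIP and 81.0, 40.9 and 75.2 in WT RIP. The mean was 2.95 ± 0.22 in KO RIP and 2.21 ± 0.56 in WT RIP (SD, n = 3 each), a ratio of 1.33 (exact permutation p = 0.2, two-sided).

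On log2(value + 1), a scale that understates changes of low values, the KO over WT difference of the Sox9 row was 0.31 (SE 0.16, 95% interval -0.06 to 0.69, adjusted p = 0.635, limma). It did not pass, and neither did any of the 14365 rows tested (0%, with 1272 rows at an unadjusted p under 0.05). Without WT replicate 2 the difference was 0.17 and without WT replicate 1 it was 0.42, with adjusted p-values of 0.885 and 0.494 (limma). Across the 6 libraries the Sox9 row was thus not measurably higher in WT RIP than in KO RIP, the genotype with the targeted Fmr1 allele.

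**Figure D5:**
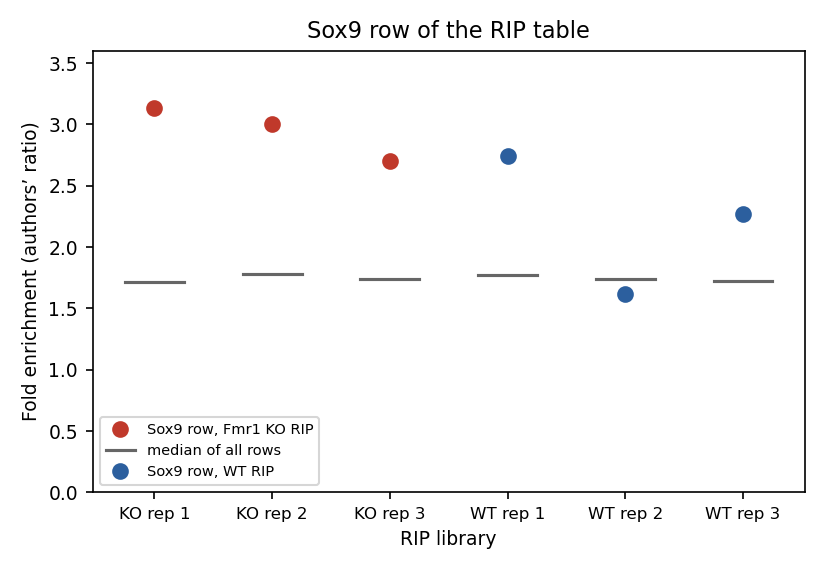
The authors' fold enrichment of the Sox9 row in the 3 KO and 3 WT RIP libraries (points), with the median of all rows in each library (grey bars, 1.72 to 1.78). The KO points lie between 2.70 and 3.14, and the WT points between 1.62 and 2.74.

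The other 6 genes had no row. Having no row was common at the abundance of each of them. Of the genes within 1.2-fold of the CPM of Fgf9 and of Ptgds, 30.0% and 33.6% had a row. Around those of Amh, Dmrt1, Dhh and Sox8 the share with a row was lower still, at 3.82%, 3.79%, 2.40% and 4.75%. Around the CPM of Sox9, which had a row, it was 20.96%. How rows were chosen is not given in the sources used here, so a missing row is not a measured absence of binding.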

How the data were processed

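Input files hold raw read counts per gene as deposited, made with featureCounts 1.6.3 over exons with an annotation file named for Ensembl release 104, per the file headers. No option for strand, read pairs or multiple placements was set, so reads from either strand of an overlap look alike. BWA 0.7.12, MACS2 2.1.0, DESeq2 1.26.0 and GRCm38 stand without a role in the submitters' processing notes. Coordinates of genes are those of the count files, and that release postdates GRCm38. RIP values are fold enrichments (a linear ratio) as deposited by the authors, with unknown depth. Gene names come from the given list of 7 identifiers, since the RefSeq table (GRCm38.p6) carries none of the identifiers.

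For counts the test was that of edgeR 4.0.16 (in R 4.3.3; TMM, filterByExpr, robust quasi-likelihood), KO over WT, with adjusted p-values over all 23698 genes and a threshold of 0.05. Ratios were tested with limma 3.58.1 on log2(value + 1), columns centred on their medians, rows with a mean of at least 1. DESeq2 1.42.0 and limma-voom were alternatives. Standard errors are the log2 change over the root of F. Both fits were also run on simulated data, but the outcome is not given here and no result above rests on it. The members and lists were chosen with earlier results of these data known, and the Y chromosome scale, the neighbours, the exonic overlaps and the 1.2-fold window for RIP rows after seeing the data. All 7 members and Fmr1 were named whatever their values. P-values measure the spread between pools, called biological replicates in the labels. KO and WT input libraries that share a number did not deviate together (correlations of -0.071, -0.034 and -0.044). RIP libraries that share a number deviated in opposite directions (correlations of -0.601, -0.336 and -0.218). In both fits the numbers were taken as names and not as pairs. Lists of other testis, granulosa and cell type markers were not used here for want of names.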

Additional observations from a re-analysis of the deposited data

How the results depend on the processing

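No alternative called any of the 6 genes that passed the filter, or the Sox9 row of the RIP table, among the alternatives run: DESeq2, limma-voom, other size factors, library sizes only, no low-count filter, the replicate block and each library left out for input, and other pseudocounts, no filter, no centring, the block and each library left out for RIP. Dhh was tested, and not called, only with no low-count filter and without KO replicate 1, KO replicate 2, WT replicate 1 or WT replicate 2. A row mean of at least 4 left no Sox9 row to test. The count of 10 called genes was 41 with DESeq2, 113 with no low-count filter and 20 with the replicate block, and ran from 5 (without KO replicate 2) to 37 (without KO replicate 1), with 28 without WT replicate 2. Causes were not tested. The count of 0 RIP rows became 1 with no filter on low values. Direction turned in 3 fits, to 0.030 and 0.041 for Sox9 (without KO replicate 1 and without WT replicate 2) and to -0.061 for Sox8 (without KO replicate 3); for these too the cause was not tested. Leaving out 1 library gave -0.078 to 0.041 for Sox9 and -0.061 to 0.47 for Sox8. With the replicate block the log2 changes were -0.33 for Fgf9 and -0.31 for Ptgds (adjusted p = 0.923 and 0.966, edgeR), and it changed no call of the 6 genes tested. Fgf9 stayed between -0.38 and -0.26 over 12 alternatives, with adjusted p-values of 0.739 to 0.999 (edgeR, DESeq2 and limma-voom). Dhh, Amh and Dmrt1 had 3 to 44 reads a library. For Dhh the CV between libraries was 74.6% in KO against 27.7% from counting, and 65.3% in WT against 32.7%. For Amh it was 44.6% in WT against 22.2%, but 24.4% in KO against 19.2%. For Dmrt1 it was 29.1% in WT against 16.7%, but 27.2% in KO against 21.0%. Whether these CVs differ from counting error was not tested. A count of 3 corresponds to 0.118 to 0.159 CPM.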
